A study of Drosophila melanogaster with 5 samples.

Results

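Binding of RNA polymerase II (Pol II), Yorkie (Yki) and Scalloped (Sd) is described here at 4 signalling genes of the Drosophila eye disc: decapentaplegic (dpp), hedgehog (hh), Delta (Dl) and Notch (N). Each locus is a window of genome build dm3, on 2L from 2400001 to 2500000 for dpp, on 3R from 18940001 to 18990000 for hh, on 3R from 15110001 to 15190000 for Dl and on X from 3020001 to 3075000 for N. The members are all peaks that share at least 1 bp with a window, 124 of the 24341 peaks in the 3 deposited lists. By list, they are 63 of 11679 for Yki, 38 of 10105 for Pol II and 23 of 2557 for Sd. The windows were given by position and not by any measured value.

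The lists come from chromatin immunoprecipitation and sequencing (ChIP-seq) of eye discs from third-instar larvae, with 1 library per antibody and about 300 pooled discs behind each. Yki and Sd were mapped in discs of genotype GMR-Gal4; UAS-Drosophila Yki S168A, whose Yki lacks a serine that Hippo signalling phosphorylates to hold Yki back. Pol II was mapped in discs of genotype GMR-Gal4; UAS-Drosophila Yki-V5, so antibody and genotype cannot be told apart wherever Pol II is set against Yki or Sd. Input DNA of both genotypes makes up the other 2 of 5 samples and was not analysed here. In both genotypes GMR-Gal4 drives the extra Yki in cells behind the morphogenetic furrow, and the labels give ectopic proliferation as the phenotype of both. A peak list averages over all cells of the pooled discs, those without the driver included, and holds no expression values by which the tissue could be checked against marker genes. No replicate exists, so no p-value is given, and the intervals printed cover counting error only.

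Each peak carries 1 deposited value, called its score here. No header states its unit. The smallest values are 3.01 (Yki), 2.00 (Sd) and 3.01 (Pol II), as a lower limit on a −log10 q value would leave. Scores are ranked only within their own list, and a percentile below is the percentage of that list with an equal or lower score. Read depth is unknown, because no list gives counts or coverage.

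The 4 genes carry the signals that pattern the eye disc. Hh is a secreted ligand made by developing photoreceptors behind the furrow, the front of differentiation that sweeps across the disc, and it drives the furrow forward. Dpp is a secreted ligand of the BMP family, induced by Hh in the furrow. Dl is a membrane-bound ligand of the receptor N, and this pair spaces the first photoreceptors and takes part in later photoreceptor fate choices. Yki, the coactivator that Hippo signalling controls, reaches DNA through partners, of which the TEAD-family protein Sd is the best known.

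Yki and Sd peaks were denser at all 4 loci than along their chromosome arms. Yki peaks numbered 19 in the 100 kb dpp window, 12 in the 50 kb hh window, 17 in the 80 kb Dl window and 15 in the 55 kb N window. In all windows of those lengths laid end to end along the same arms, the median was 9 peaks for the dpp length, 4 for hh, 7 for Dl and 5 for N, and the upper quartiles were 13, 7, 11 and 8. Every locus was therefore above the upper quartile of its arm. Density was highest at N, with 273 Yki peaks per Mb against 94.1 on X, and lowest at dpp, with 190 against 90.3 on 2L. At hh it was 240 per Mb and at Dl 213, against 94.8 on 3R.

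Sd peaks numbered 7 at dpp, 7 at hh, 4 at Dl and 5 at N, against arm medians of 2 for dpp and 1 for each of the others. Their density ran from 50.0 per Mb at Dl, where 3R has 20.3, to 140 per Mb at hh. Pol II peaks did not follow the same order. They numbered 4 at dpp, under the 2L median of 5, but 10 at hh, 14 at Dl and 10 at N, above the upper quartiles of 7, 10 and 7. Of the dpp window, Yki peaks covered 9.61%, Sd peaks 1.83% and Pol II peaks 2.12%. Of the N window they covered 15.6, 2.95 and 10.7%, in that order.

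**Figure D1:**
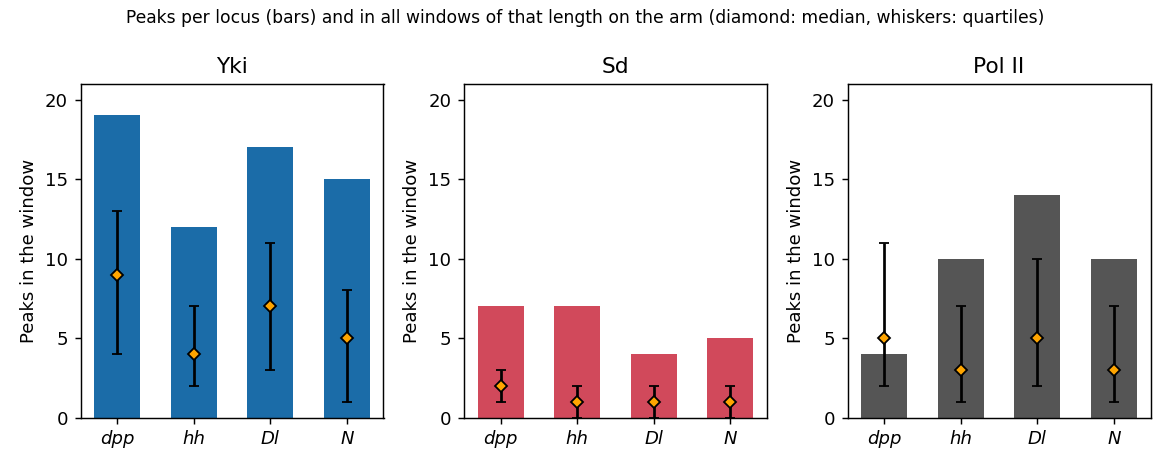
Peaks per locus in the Yki, Sd and Pol II lists (bars; vertical axis in peaks, horizontal axis the 4 windows, 1 library per list). Diamonds and whiskers give the median and quartiles over all windows of the same length on the arm; the bars exceed the upper whisker everywhere except for Pol II at dpp, where 4 peaks lie below the median of 5.

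Counts of strong peaks gave a different order. Among peaks in the upper 50% of their list by score, Yki had 6 at dpp, 7 at hh, 6 at Dl and 7 at N. The arm medians for such peaks were 4, 2, 4 and 2, and the upper quartiles 7, 4, 6 and 4, so only hh and N stayed above the upper quartile. Sd had 1 such peak at dpp, 4 at hh, 2 at Dl and 3 at N, and dpp alone was not above its upper quartile, which was 2 there and 1 elsewhere. Pol II had 6 such peaks at hh, above the upper quartile of 3. It had 3 at dpp and 3 at N, at or above medians of 3 and 2 but below upper quartiles of 6 and 4, and 1 of 14 at Dl, under the median of 3.

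At dpp, Yki and Sd sites were many, mostly weak, and mostly away from Pol II. For Sd the last trait was that of the list, as 5 of 7 dpp peaks and 1540 of 2557 overall met no Pol II peak. For reference, 35.0% of the whole Yki list had neither Sd nor Pol II, 10.7% had only Sd, 44.9% had only Pol II and 9.38% had both. Of the 19 Yki peaks at dpp, 11 had neither Sd nor Pol II, 4 had Sd only, 2 had Pol II only and 2 had both. The strongest Yki site of the window was at 2433397 to 2434170, a 774 bp peak with a score of 64.8, at percentile 95.9. Inside it lay the strongest Sd peak of the window, at 2433656 to 2434057, with a score of 14.7 and rank 70 of 2557. No Pol II peak overlapped this pair. On its right the next peak of any list began 12.8 kb away, the longest interval between peaks within the window.

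The other dpp Sd peaks, from 200 to 361 bp wide beside a list median of 270 bp, all scored below the middle of the Sd list. At 2450886 to 2451567 a Yki peak (score 36.5) held a weak Sd peak at 2451351 to 2451556 (4.46) and a strong Pol II peak at 2451092 to 2451510 (103, percentile 89.0). At 2492616 to 2493084 a Yki peak (51.5) held an Sd peak at 2492706 to 2492916 (5.80), and both lay inside the widest Pol II peak of the window, 1048 bp from 2492408 to 2493455 (110, percentile 92.0). These were the 2 dpp sites with all 3 proteins. Within the Sd list, the Sd peaks of these sites were at percentiles 19.0 and 35.8.

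Further dpp sites with Yki and Sd had no Pol II peak. The Yki peak at 2452396 to 2452762 (16.8) held Sd at 2452514 to 2452713 (5.69), the Yki peak at 2463757 to 2464543 (15.9) held Sd at 2463843 to 2464069 (3.87), and the Yki peak at 2480508 to 2480979 (11.6) held Sd at 2480552 to 2480912 (6.43). All 3 Yki peaks were below percentile 40, at 38.0, 35.7 and 22.9. The widest dpp Yki peak, 1115 bp at 2481207 to 2482321 (29.9), had no Sd peak and began 227 bp after the last of these sites. An Sd peak at 2466634 to 2466851 (6.65) stood 2090 bp from the nearest Yki peak. It was the only Sd peak of the 4 loci without Yki, and 1 of 58 in the whole list.

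The strongest Pol II peak at any of the 4 loci was towards the left end of the dpp window, at 2415078 to 2415469 (119, percentile 95.7). It coincided with a Yki peak at 2415097 to 2415463 that scored only 8.70 (percentile 12.7), their centres 6.5 bp apart. In the Release 6 gene table, the protein-coding neighbours of dpp are CG44139 and Slh. Peaks were not assigned to dpp or to a neighbour, as no dm3 annotation was used, and this holds at every locus.

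**Figure D2:**
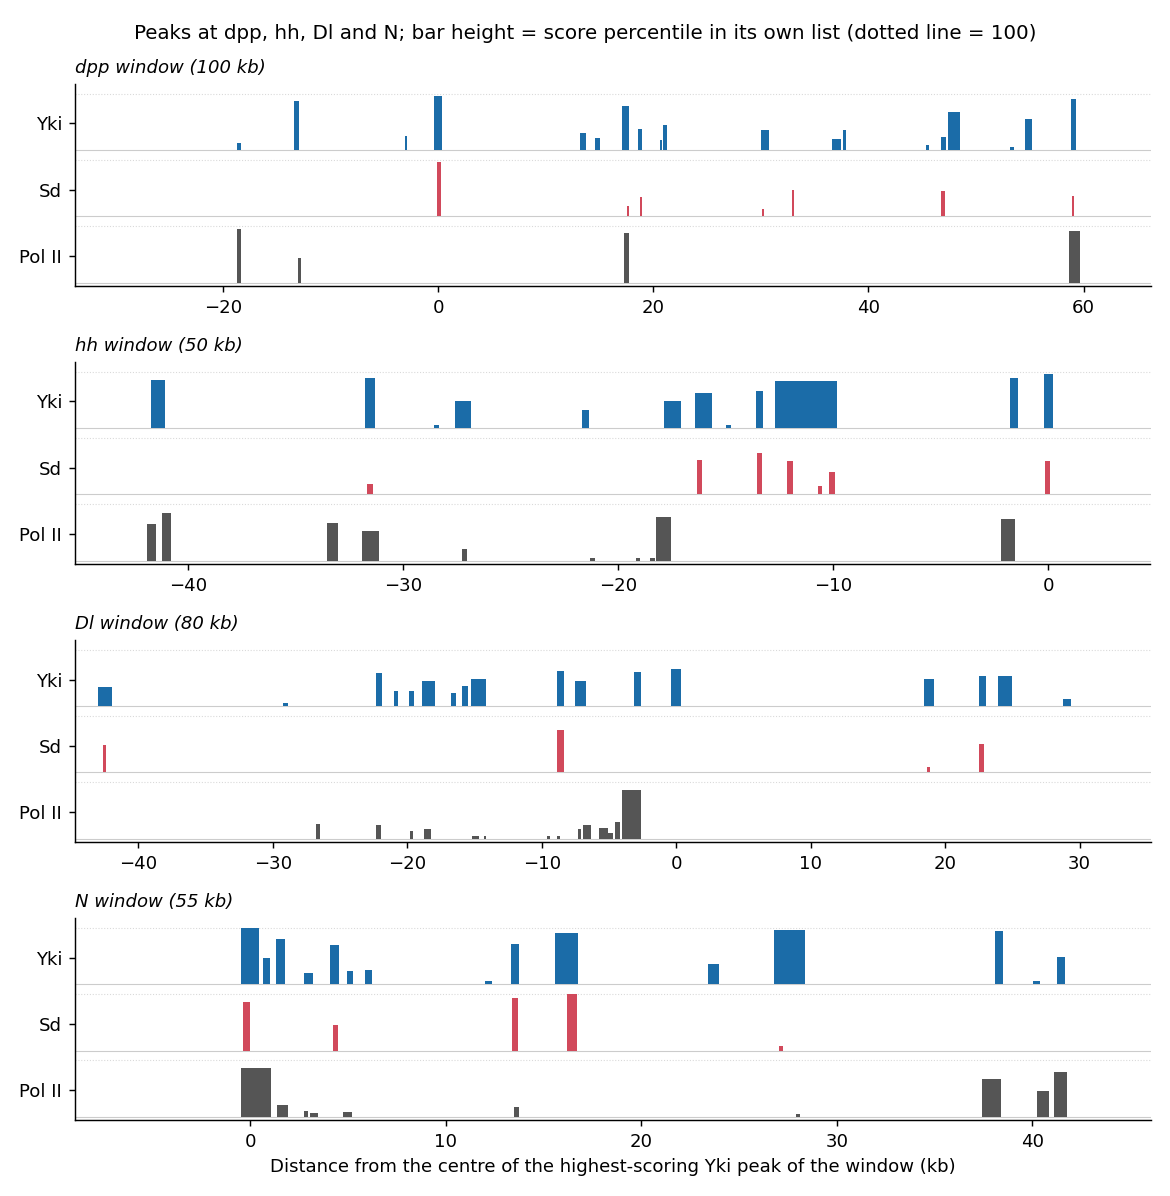
Peaks of the Yki, Sd and Pol II lists in each window, to scale along the horizontal axis (kb from the centre of the highest-scoring Yki peak of that window). Bar width is peak width and bar height the score percentile within its own list, with a minimum height so that the weakest peaks can be seen; the wide Yki block at hh holds 3 Sd peaks, and Dl has a row of low Pol II bars beside 1 high one.

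At hh, Sd was dense and was grouped around 1 broad Yki region. Of 12 Yki peaks, 4 had Sd only, 4 had Pol II only, 1 had both and 3 had neither. The broad region spanned 2878 bp from 18972533 to 18975410 (score 42.5, percentile 83.5), which is width rank 12 of 11679 Yki peaks. Inside it were Sd peaks at 18973126 to 18973374 (7.58), 18974525 to 18974729 (4.04) and 18975052 to 18975318 (6.06). Yki peaks with 3 or more Sd peaks numbered 17 in the whole list. No Pol II peak overlapped the region, and the next peak of any list was 7.66 kb beyond its right edge.

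Just to its left, 560 bp away, a 331 bp Yki peak at 18971642 to 18971972 (29.0) held the strongest hh Sd peak, at 18971709 to 18971946 (9.05, percentile 72.7). A Yki peak at 18968850 to 18969623 (27.1) held Sd at 18968906 to 18969164 (7.80). With the broad region, these sites put 5 of the 7 hh Sd peaks within one stretch from 18968906 to 18975318 that held no Pol II peak. The strongest hh Yki peak lay apart from them, at 18985059 to 18985450 (64.4, percentile 95.8), with Sd at 18985111 to 18985346 (7.61). It was the only hh Yki peak in the top 10% of the list.

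The single hh site with all 3 proteins was at 18953498 to 18953941 (Yki score 47.2). Its Sd peak at 18953576 to 18953860 (4.37) was the widest of the window and was centred 1.5 bp from the Yki centre and 9.0 bp from the centre of the Pol II peak at 18953335 to 18954119 (33.3), which was likewise the widest. The highest Pol II score at hh was 92.2, at 18944035 to 18944455, beside a peak at 18943369 to 18943771 (52.9); the same Yki peak, at 18943549 to 18944215 (43.7), overlapped both. Pol II peaks at hh fell into stronger and weak ones. Of the 10, 6 had percentiles from 52.4 to 84.1, and 4 had percentiles from 0.287 to 21.8. The Pol II peak at 18967025 to 18967705 (78.3) was preceded by 3 of the weak ones, which scored from 3.17 to 4.00 and overlapped no Yki peak. In the gene table CG31457 and unk, the zinc-finger gene unkempt, are the protein-coding neighbours of hh.

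At Dl, Yki peaks were numerous and of middling rank, and Pol II peaks were the most numerous of the 4 loci and mostly weak. Of 17 Yki peaks, 7 had neither Sd nor Pol II, 6 had Pol II only, 3 had Sd only and 1 had both. Yki scores ran from 6.73 to 29.1, and the highest, at 15154347 to 15155105, was at percentile 65.6. That peak had neither Sd nor Pol II. The widest Dl Yki peak, 1069 bp at 15139480 to 15140548 (20.5), overlapped 2 weak Pol II peaks and no Sd peak.

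The 4 Dl Sd peaks were spread out, with gaps from 3683 to 33577 bp. The strongest was at 15145889 to 15146379 (9.22, percentile 75.0), a 491 bp peak inside the Yki peak at 15145865 to 15146422 (27.2). This was the Dl site with all 3 proteins, but its Pol II peak at 15145892 to 15146105 scored only 4.83 (percentile 3.91). The Yki peak at 15111727 to 15112741 (15.2) held Sd at 15112087 to 15112311 (6.74), the Yki peak at 15177258 to 15177739 (23.3) held Sd at 15177275 to 15177646 (6.93), and the Yki peak at 15173165 to 15173936 (20.6) held Sd at 15173367 to 15173591 (3.72). These 3 Sd peaks were 15668 to 25170 bp from the nearest Pol II peak.

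The widest and highest-scoring Pol II peak at Dl spanned 1399 bp from 15150706 to 15152104, with a score of 97.4 (percentile 86.4). It overlapped a Yki peak at 15151598 to 15152103 (26.1) and no Sd peak. The other 13 Dl Pol II peaks scored from 3.49 to 12.5, all at or below percentile 29.4, and every one of them lay on the lower-coordinate side of the strong peak. To the right, a stretch of 18.1 kb from 15155106 to 15173164 held no peak of any list, the longest such interval inside a window. No Pol II peak was called between there and the right end of the window, where 4 Yki and 2 Sd peaks lay. The Release 6 table lists Dl under the symbol Delta, between CG44174 and CG43203.

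At N, which encodes the receptor, Yki and Sd included the strongest peaks of the 4 loci and every Pol II peak met Yki. Of 15 Yki peaks, 7 had Pol II only, 3 had Pol II and Sd, 2 had Sd only and 3 had neither. The strongest Yki peak, at 3028489 to 3029444, scored 95.01 and ranked 66 of 11679. Its Sd peak at 3028606 to 3028938 scored 10.6 (percentile 85.1). Both overlapped the widest and strongest N Pol II peak, 1551 bp from 3028491 to 3030041 (97.9, percentile 86.7), as did another Yki peak at 3029625 to 3029997 (19.7).

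An N Sd peak had a score of 16.3, the top value of its list, at which 25 Sd peaks are tied. It was 511 bp wide, at 3045169 to 3045679, inside a 1153 bp Yki peak at 3044556 to 3045708 (51.8, percentile 90.9) without Pol II. The next N Sd score, 12.3 (percentile 92.2), was at 3042360 to 3042676 in a Yki peak at 3042330 to 3042714 (32.0), where the Pol II peak at 3042479 to 3042699 was weak (7.85). A Yki peak at 3033031 to 3033533 (30.8) held Sd at 3033199 to 3033451 (6.43). The widest N Yki peak, 1574 bp at 3055754 to 3057327 (62.5, percentile 95.1), met a weak Sd peak at 3056007 to 3056213 (3.58) and, 638 bp further on, a weak Pol II peak at 3056852 to 3057071 (4.64). Sd and Pol II did not overlap each other there.

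The right end of the N window had Pol II and Yki without Sd. Pol II peaks at 3066398 to 3067341 (59.3), 3069204 to 3069819 (24.6) and 3070050 to 3070745 (82.7) overlapped Yki peaks that scored 61.3, 4.56 and 20.6 in the same order. The remaining 6 N Pol II peaks, all outside these and the strong left-hand peak, scored from 4.64 to 8.83. In the gene table N lies between kirre, which encodes a cell-adhesion protein of the immunoglobulin family, and CG18508.

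Over the 4 loci together, Yki peaks met Sd in 20 of 63 cases, or 31.7% (exact Clopper-Pearson 95% interval 20.6 to 44.7), where 20.1% of the whole Yki list did. The locus shares were 41.7% at hh (5 of 12), 33.3% at N (5 of 15), 31.6% at dpp (6 of 19) and 23.5% at Dl (4 of 17). Their intervals overlapped widely, from 6.81 to 49.9% at Dl and from 15.2 to 72.3% at hh, so their order cannot be told at these numbers. Seen from Sd, 22 of 23 peaks met Yki, or 95.7% (78.1 to 99.9), beside 97.7% of the whole list. All 22 lay wholly inside their Yki peak, as did 93.4% of 2503 pairs in the whole lists, and centres were a median of 57.3 bp apart, beside 60.5 bp.

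Yki peaks with Sd scored higher than those without at every locus by median, as in the whole list. The medians were 26.6 and 12.1 at dpp, 42.5 and 20.5 at hh, 22.0 and 19.0 at Dl, and 51.8 and 14.1 at N, beside 41.3 and 18.5 in the whole list. The ranges overlapped at each locus. At dpp and hh the Yki peaks of highest score had Sd and reached 64.8 and 64.4, and at N the highest had Sd too, whereas at Dl the highest had none. Over the 4 loci, median width was 620 bp for the 20 Yki peaks with Sd and 405 bp for the 43 without.

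**Figure D3:**
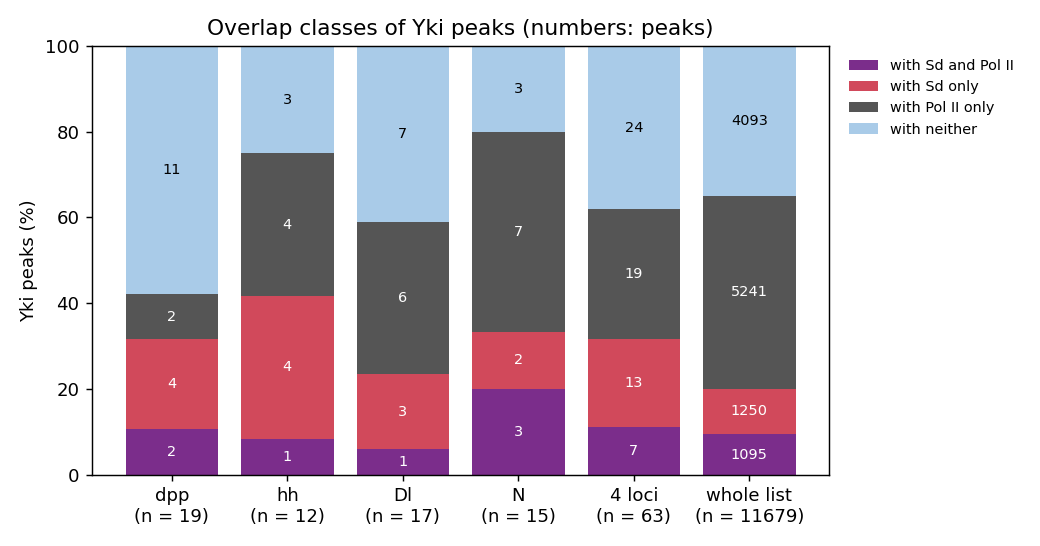
Share of Yki peaks (vertical axis, %) in 4 overlap classes, by colour as in the key, at each locus, over the 4 loci and in the whole list (numbers in the bars count peaks). At dpp 11 of 19 peaks have neither; at N 10 of 15 have Pol II.

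The Pol II overlap of Yki peaks differed most in level between dpp and N. It was 26 of 63 over the 4 loci, or 41.3% (29.0 to 54.4), where 54.3% of the whole Yki list met Pol II. At dpp it was 21.1% (4 of 19, 6.05 to 45.6), at Dl 41.2% (7 of 17), at hh 41.7% (5 of 12) and at N 66.7% (10 of 15, 38.4 to 88.2). Neighbours in this order had overlapping intervals, and so did dpp and N. With both lists limited to their upper 50% by score, the share was 33.3% at dpp (2 of 6) and 28.6% at N (2 of 7). The cut Yki list had 52.0%. On these few peaks, N thus no longer stood above dpp or above its list.

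Among Sd peaks, 6 of 23 met Pol II, or 26.1% (10.2 to 48.4), beside 39.8% of the whole Sd list. Each of these 6 was also on a Yki peak, as were 1013 of the 1017 Sd peaks with Pol II in the whole list. Seen from Pol II, 29 of 38 peaks met Yki, or 76.3% (59.8 to 88.6), beside 63.3% of the list, and 6 of 38 met Sd, or 15.8% (6.02 to 31.3), beside 9.90%. All 10 N and all 4 dpp Pol II peaks met Yki, while 4 of 10 at hh and 5 of 14 at Dl did not. The 9 Pol II peaks without Yki had a median score of 6.39, against 9.94 for 23 with Yki alone and 65.6 for 6 with Yki and Sd. Their ranges overlapped widely, at 3.17 to 57.8, 3.90 to 119 and 4.83 to 110 in that order. The 6 with Yki and Sd were split, with scores as low as 4.83 and 7.85. Of the 6 shares over the 4 loci together, the interval of 1 leaves out the share of its whole list: Yki peaks with Sd, whose lower bound of 20.6% lies just above 20.1%. Among the 24 shares of single loci, the interval of the Yki peaks with Pol II at dpp lies below 54.3%. That of the Pol II peaks with Yki at N (69.2 to 100.0%) lies above 63.3%. With lists cut to 2557 peaks the dpp share was 33.3% (1 of 3), no longer below its list, which had 32.2%. Under the other alternatives run, the dpp share stayed below that of the list. The N share fell to 66.7% (2 of 3) in the upper 50% by score, where the list had 60.7%. It was 50.0% with lists cut to 2557 peaks (1 of 2, list 32.0%) and with peaks cut to their central 200 bp (5 of 10, list 33.8%). The intervals treat peaks as independent, and peaks of a window are neighbours on the same chromatin, so they are too narrow.

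Score ranks also varied among the loci. Median Yki percentile was 63.8 at hh, 48.0 at N, 45.2 at Dl and 35.7 at dpp. In the top 10% of the Yki list were 4 peaks at N, 2 at dpp and 1 at hh. Median Sd percentile was 85.1 at N, 58.7 at hh, 49.6 at Dl and 35.8 at dpp, and the ranges overlapped at all 4 loci. Median Pol II percentile was 90.5 at dpp (n = 4), 58.5 at hh, 18.8 at N and 17.6 at Dl. So dpp had the fewest Pol II peaks with the highest median rank, and Dl the most with the lowest.

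**Figure D4:**
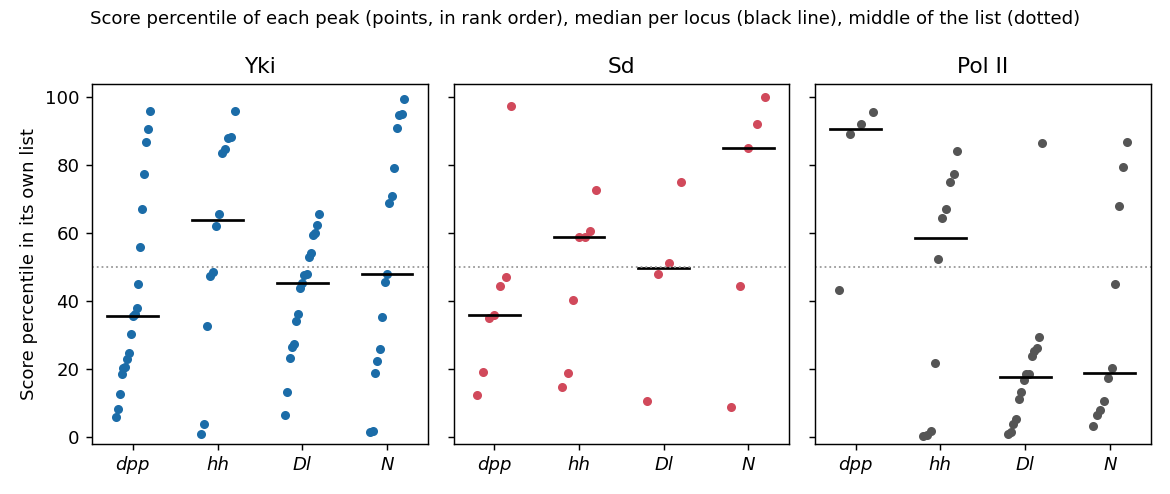
Score percentile within its own list (vertical axis, 0 to 100) of every Yki, Sd and Pol II peak at each locus; points are peaks in rank order, black lines medians, and the dotted line the middle of the list. Pol II has a median of 90.5 at dpp and 17.6 at Dl; Sd has its highest median, 85.1, at N.

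Peaks that overlap formed 72 separate sites in the 4 windows. Of these, 24 held Yki alone, 18 Yki and Pol II, 13 Yki and Sd, 7 all 3 proteins, 9 Pol II alone and 1 Sd alone. Sites with Yki and Sd but no Pol II outnumbered those with all 3 at dpp (4 against 2), hh (4 against 1) and Dl (3 against 1), and were fewer at N (2 against 3). In the whole Yki list, too, peaks with Sd alone (1250) outnumber those with both (1095). Sites with Pol II alone were found at hh (4) and Dl (5).

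Yki peaks were more closely spaced than in the whole list, which restates their density. The median gap between neighbouring Yki peaks was 992 bp at N, 1233 bp at hh, 1700 bp at Dl and 2266 bp at dpp, and 1533 bp over 59 gaps, beside 3669 bp over the 6 chromosome arms. Gaps under 1 kb were 39.0% of those at the 4 loci and 25.7% on the arms. The closest Yki neighbours were 162 bp apart, at dpp, and the widest Yki gap was the 18.1 kb stretch at Dl. Sd gaps had a median of 1862 bp at hh (n = 6), 6584 bp at N (n = 4), 11461 bp at dpp (n = 6) and 26987 bp at Dl (n = 3), beside 22327 bp on the arms. Pol II gaps had a median of 589 bp at Dl (n = 13) and 30077 bp at dpp (n = 3), beside 2308 bp on the arms. For every list, only gaps between peaks of the same window entered, so longer gaps were left out, unlike on the arms. By density, Sd at Dl exceeded its arm, with 50.0 against 20.3 per Mb. For the 37 Yki peaks outside Pol II, the median distance to the nearest Pol II peak was 9647 bp at dpp (n = 15) and 8740 bp at Dl (n = 10). It was 1341 bp at hh (n = 7) and 1151 bp at N (n = 5), beside 5200 bp for 5343 such peaks in the whole Yki list.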

How the data were processed

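The 3 deposited peak lists (Yki, Sd and Pol II, 1 library each) give a chromosome, start, end, name and 1 value per peak. The submitters' processing notes name build dm3 and the tools MACS2, Bowtie and CASAVA 1.8.2; what was set in them, and which control was used, is not given in the sources used here. The deposited score has no stated unit and was used only to rank peaks within a list. Per the labels' protocols, fixation lasted 30 minutes in 2% formaldehyde and each immunoprecipitation took 10 µg of antibody. Starts were made 1-based. A peak belonged to a locus, and peaks of different lists overlapped, when at least 1 bp was shared. Arm length was the last peak end in any list. Intervals are exact Clopper-Pearson at 95%. Named in full are all Sd peaks, all Yki peaks that meet Sd, and the highest-scoring and widest peak of each list at each locus; other named peaks were chosen after their values were seen. The loci and measures were chosen with earlier results of these data known. Peak sequences and the planned promoter motif search were not used here, since no dm3 genome or promoter sequence was used. Gene names come from a RefSeq Release 6 table, which holds all 4 genes (Dl by synonym); its coordinates were not used. Software was matplotlib 3.10.9, scipy 1.17.1, pandas 2.3.3 and numpy 2.4.6 under Python 3.11.15. The overlap code was tested on simulated peaks.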

Additional observations from a re-analysis of the deposited data

How the results depend on the processing

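Shares were judged against their exact 95% interval, counts of peaks against a change of 1.5 times, and medians against their quartiles. The 50% overlap rule, the 1 kb gap, the Sd score limit of 3, peaks wholly inside the window, windows widened by 10 kb and gaps between centres moved none of the values over the 4 loci or the counts per locus. When only the upper 50% by score entered, Yki counts were 6 at dpp, 7 at hh, 6 at Dl and 7 at N. Sd counts were then 1, 4, 2 and 3, and Pol II counts 6 at hh, 1 at Dl and 3 at N. With this cut 100.0% of Sd peaks met Yki (10 of 10), above 87.9% in the cut list. Without it 95.7% (22 of 23) lay below 97.7%. With the cut, Sd peaks met Pol II in 10.0% (1 of 10), beside 27.9% in the cut list. Median score percentiles were then 78.2 (Yki), 73.9 (Sd) and 79.5 (Pol II), as the cut itself requires, and median Pol II width was 681 bp. With each list cut to 2557 peaks, Yki counts were 3 at dpp, 5 at hh, 0 at Dl and 5 at N, and Pol II counts 3 at hh, 1 at Dl and 2 at N. The Sd list, with 2557 peaks, stayed whole. Yki peaks with Sd were 61.5% (8 of 13, 52.0% in the cut list) and Sd peaks with Yki 43.5% (10 of 23, 56.6% in the Sd list). Pol II peaks with Yki were 44.4% (4 of 9, 32.0% in the cut list) and Pol II peaks with Sd 33.3% (3 of 9, 17.8%). With peaks reduced to their central 200 bp, 23.8% of Yki peaks met Pol II, beside 29.2% in the list. Sd peaks met Yki in 65.2% (75.9% in the list) and Pol II peaks met Yki in 39.5% (33.8%). These shares fell, since narrower peaks meet less. At single loci, the share of Yki peaks with Sd was below the same list's share at dpp in the upper 50% by score (1 of 6 peaks). At Dl it was just below the list's share with windows widened by 10 kb (4 of 20 peaks). Over the 4 loci together, the share exceeded the list's share under every alternative run. The excess was least with the central 200 bp, at 23.8 against 16.6%. With those shortened peaks 21.7% of Sd peaks (5 of 23) met Pol II, above the 18.5% of the list, the opposite side to whole peaks. Of 158 shares of single loci under an alternative, 132 stayed within their interval; the shares of Dl Yki peaks had no value with lists of equal length, as no peak was left. The promoter motif result was not run. No paired analysis was possible because the design has no replicate of any antibody. Depth is unknown, and a site without a peak is one where none was called.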
